A study of Rattus norvegicus with 8 samples.

Results

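The genes described here are 8 members of the protein folding machinery of the endoplasmic reticulum (ER) and its stress response: Hspa5, Hsp90b1, Pdia4, Xbp1, Dnajb9, Herpud1, Calr and Sdf2l1. They were chosen by name, and each was measured by the probe sets to which the platform annotation gives that single symbol. Each gene had 1 such probe set, so that 8 probe sets were followed among the 31042 tested, which represent 14217 named genes. The livers came from male Wistar rats in which inhaled carbon tetrachloride (CCl4), a hepatotoxin, had caused cirrhosis. Phenobarbital, which induces drug metabolism in hepatocytes, was in their drinking water at 0.3 g/L, so that both groups carry the toxin and the inducer. There were 4 livers labelled as given an antiangiogenic treatment, meant to limit the growth of new blood vessels, and 4 labelled as given vehicle. The series description calls the second group non-treated, and the labels name neither the compound nor its dose nor the age of the rats. All values are log2 intensities of Affymetrix Rat2302 arrays, summarised by robust multi-array average (RMA), with 1 array for each liver as labelled.

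Secreted and membrane proteins fold in the ER, and hepatocytes, which secrete most plasma proteins, carry a heavy folding load. When unfolded proteins build up, sensors in the ER membrane switch on the unfolded protein response. The sensor IRE1 splices the Xbp1 transcript so that it encodes an active transcription factor, ATF6 is cut to release another, and PERK slows translation while favouring ATF4 and its target CHOP (gene Ddit3). Xbp1 and ATF6 raise chaperones, folding enzymes and the degradation machinery. The arrays measure total Xbp1 transcript and not its splicing, so that the activity of the factor was not measured.

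The promoters of these genes are where the response is known to act. The ER stress response element (ERSE), which binds the factor NF-Y at its first part and ATF6 or Xbp1 at its second, reads CCAAT, any 9 bases and CCACG, and the related ERSE-II reads ATTGG, any 1 base and CCACG. Both were searched for exactly, on both strands, in the 250 bases before the annotated transcription start in RefSeq, where all 8 genes matched an entry by symbol (rat build GRCr8). ERSE was present in 4 of the 8 promoters, those of Hspa5, Hsp90b1, Xbp1 and Calr, and in 22 of 33469 promoters in all (0.0657%). ERSE-II was present before Herpud1 and in 14 of all promoters (0.0418%). The Xbp1 element TGACGTGG was in 0 of the 8 and in 0.52% of all promoters. The core CCACG, which also lies inside ERSE and ERSE-II, was in 7 of the 8 and in 27.2% of all promoters. The promoters of Pdia4, Dnajb9 and Sdf2l1 held neither ERSE nor ERSE-II in these letters and this window. A match in letters is a description of the sequence, and no binding was measured. The 8 genes were chosen by name as members of this response. Their motif counts beside those of all promoters are therefore no independent test.

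The 5 promoters with an exact ERSE or ERSE-II are printed 5′ to 3′ on the strand of the gene, ending 1 base before the start, with the fixed letters of each match in capitals. They lie at chr3:38452766-38453015 on the plus strand (Hspa5), chr7:23012294-23012543 on the minus strand (Hsp90b1), chr14:84604373-84604622 on the plus strand (Xbp1), chr19:10614708-10614957 on the minus strand (Herpud1) and chr19:40213117-40213366 on the plus strand (Calr).
Hspa5: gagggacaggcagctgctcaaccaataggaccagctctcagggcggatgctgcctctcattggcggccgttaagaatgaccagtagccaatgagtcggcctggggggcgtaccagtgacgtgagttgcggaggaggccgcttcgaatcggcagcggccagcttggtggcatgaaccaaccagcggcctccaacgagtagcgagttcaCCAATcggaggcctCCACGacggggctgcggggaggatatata
Hsp90b1: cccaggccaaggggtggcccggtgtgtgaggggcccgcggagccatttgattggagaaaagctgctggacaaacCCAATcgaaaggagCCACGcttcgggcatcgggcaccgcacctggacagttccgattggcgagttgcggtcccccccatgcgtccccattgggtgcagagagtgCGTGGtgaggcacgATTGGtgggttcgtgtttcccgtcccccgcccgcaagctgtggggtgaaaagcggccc
Xbp1: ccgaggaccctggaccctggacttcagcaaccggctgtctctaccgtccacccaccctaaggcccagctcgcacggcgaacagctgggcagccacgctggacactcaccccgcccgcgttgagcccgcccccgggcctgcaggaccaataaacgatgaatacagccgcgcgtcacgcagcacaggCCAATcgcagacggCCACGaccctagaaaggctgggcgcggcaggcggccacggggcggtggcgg
Herpud1: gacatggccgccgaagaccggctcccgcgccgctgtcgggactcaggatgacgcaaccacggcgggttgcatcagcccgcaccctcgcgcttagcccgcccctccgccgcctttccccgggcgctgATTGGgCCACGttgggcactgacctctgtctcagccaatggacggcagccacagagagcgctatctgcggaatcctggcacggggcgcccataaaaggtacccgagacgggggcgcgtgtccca
Calr: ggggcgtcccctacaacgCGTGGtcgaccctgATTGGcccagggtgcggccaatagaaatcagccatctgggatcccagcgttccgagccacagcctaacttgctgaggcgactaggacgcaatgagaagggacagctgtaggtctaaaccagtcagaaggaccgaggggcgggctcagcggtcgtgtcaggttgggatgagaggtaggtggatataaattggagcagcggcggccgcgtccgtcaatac
The ERSE of Hspa5 lay 43 to 25 bases before the start and that of Xbp1 65 to 47 bases before it, both in the forward direction. Hsp90b1 held 2 copies, a forward one at 176 to 158 bases and a reverse one at 72 to 54 bases. The copy of Calr was reversed and lay 232 to 214 bases before the start. The ERSE-II of Herpud1 lay at 124 to 114 bases.

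**Figure D1:**
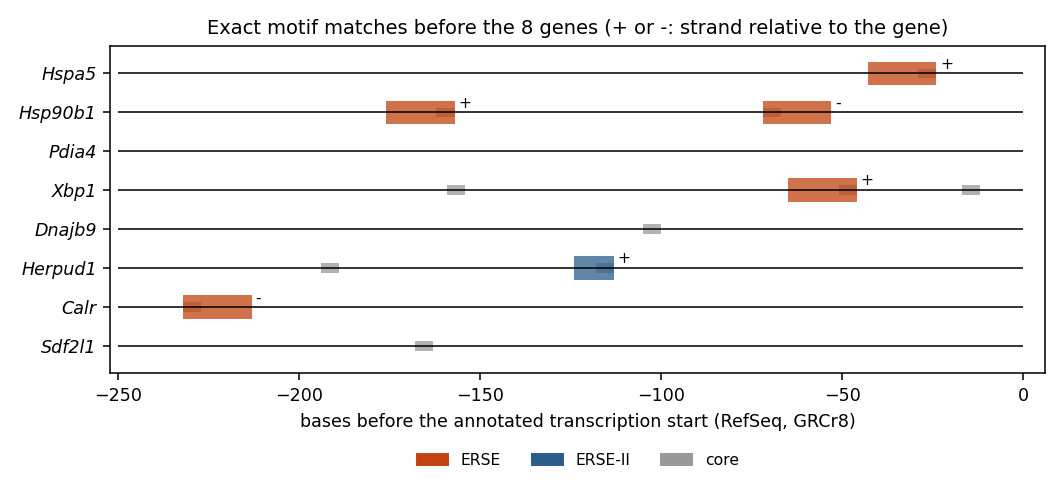
Exact matches to ERSE, ERSE-II and the core in the 250 bases before the annotated start of each gene. The horizontal axis gives bases before the start, and the signs give the strand relative to the gene. Hsp90b1 holds 2 copies of ERSE, Hspa5, Xbp1 and Calr hold 1 each, Herpud1 holds ERSE-II, and Pdia4 holds none of the 3 motifs.

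Some arrays did not sort by their labels. Treated 3 and vehicle 4 were nearly identical, with r = 0.996 over all probe sets against 0.956 to 0.988 in the other 27 pairs. Treated 4 correlated at 0.985 to 0.988 with vehicle 1 to 3 and at 0.970 to 0.979 with the other treated arrays. The files do not tell whether treated 3 and vehicle 4 carry RNA of 1 liver, in which case a label would be wrong and the livers fewer than 8. Both arrays were kept under their labels and counted in each n = 4. The labels name no hybridization batch, and the grouping used here was read from the bacterial spike-in signals. They set treated 1 and vehicle 1 apart, with BioC 1.32 and 1.48 above BioB on the log2 scale. Treated 3 and vehicle 4 had the highest BioB, 8.87 and 8.97, and the other 4 arrays were taken as the second spike-in group. The 3′ minus 5′ log2 signal of the Gapdh control, a measure of RNA integrity, was 0.288 ± 0.114 in treated and 0.301 ± 0.113 in vehicle livers (SD, n = 4 each, exact two-sided permutation p = 0.914). The series description gives 4 rats per group and the labels add nothing on how the livers were obtained.

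None of the 8 genes differed between treated and vehicle livers beyond the spread between arrays. By limma with Benjamini-Hochberg adjustment over all probe sets, 0 of 8 passed an adjusted p of 0.05, and 0 of 8 had an unadjusted p under 0.05. The same counts over the whole array were 0 (0%) and 1220 (3.93%). The lowest adjusted p among the 8 genes was 0.979, which was also the lowest on the array. In treated livers 2 genes had the higher mean and 6 the lower, beside 54.7% of all probe sets with the higher mean. The median difference, treated minus vehicle, was −0.13 over the 8 genes and 0.02 over all probe sets. The treated and vehicle values overlapped for all 8 genes (0 without overlap, beside 1.67% of all probe sets). In such whole-liver samples, fewer cells of a type and less RNA per cell cannot be told apart.

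**Figure D2:**
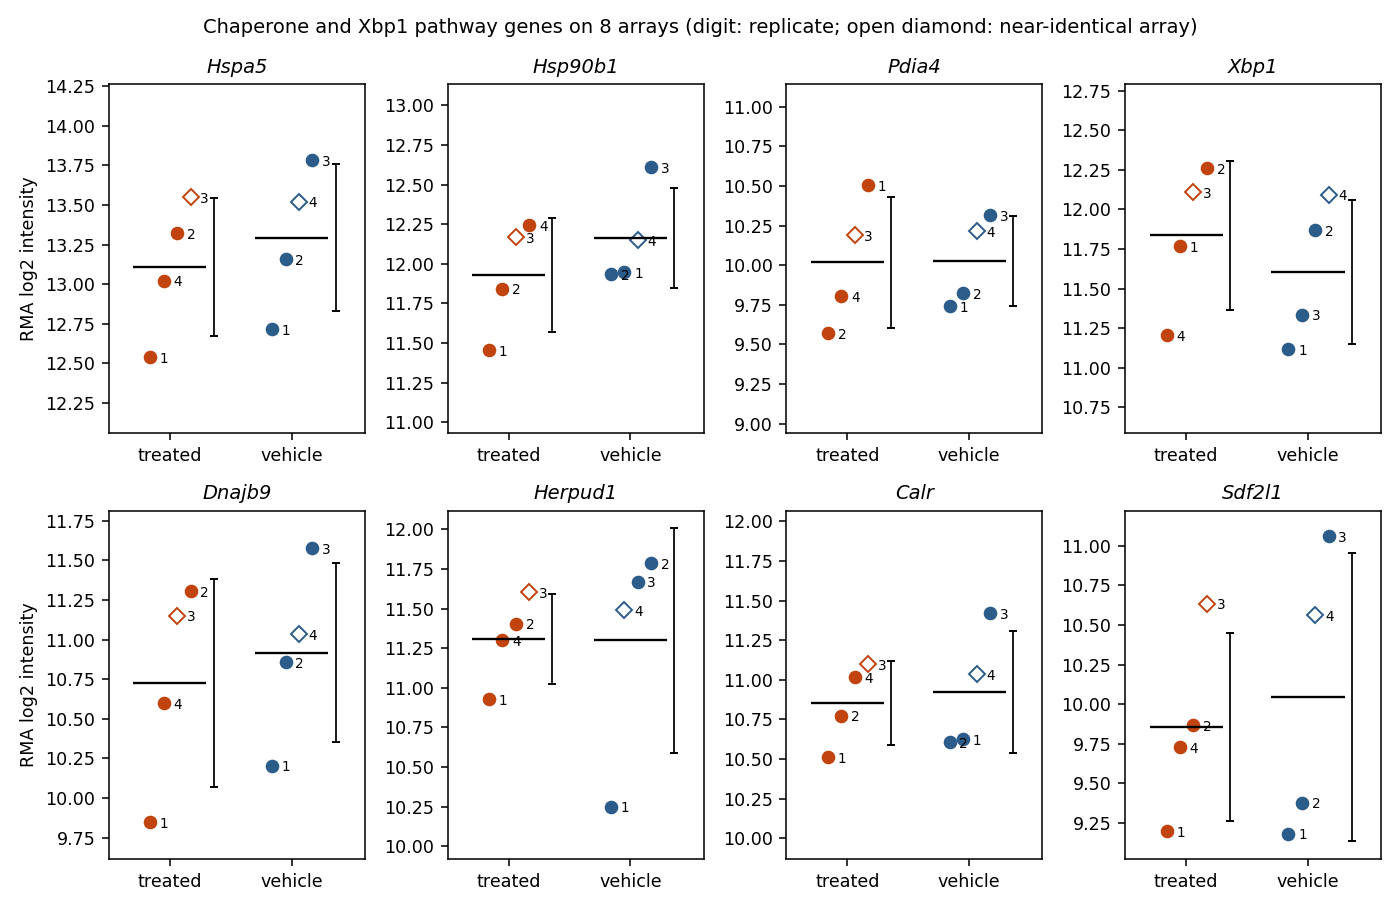
RMA log2 intensity of each gene on each array, treated at the left and vehicle at the right, on axes of equal length. Digits give the replicate, open diamonds the near-identical treated 3 and vehicle 4, horizontal lines the group means and bars at the side the SD (n = 4). The groups overlap in every panel.

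Hspa5 (1370283_at) encodes BiP, the Hsp70 chaperone of the ER, which also holds the stress sensors inactive. Its log2 level was 12.54, 13.32, 13.55 and 13.02 on treated 1 to 4, and 12.72, 13.16, 13.78 and 13.52 on vehicle 1 to 4. Treated 1 and vehicle 1 were the lowest of the 8 arrays and vehicle 3 the highest. The means were 13.11 ± 0.44 in treated and 13.29 ± 0.46 in vehicle livers (SD, n = 4 each), a difference of −0.18 with a 95% interval from −0.80 to 0.43. On the linear scale the interval runs from 0.573-fold to 1.35-fold.

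Hsp90b1 (1388331_at) encodes GRP94, the Hsp90 chaperone of the ER. It measured 11.45, 11.84, 12.17 and 12.25 on treated 1 to 4, and 11.95, 11.93, 12.61 and 12.15 on vehicle 1 to 4. Treated 1 was again the lowest and vehicle 3 the highest, with the other 6 arrays between 11.84 and 12.25. The difference of −0.23 (95% interval −0.72 to 0.25) was the lowest of the 8 genes. Calr (1398750_at) encodes calreticulin, a calcium-binding lectin chaperone that folds glycoproteins. Its log2 level was 10.51, 10.77, 11.10 and 11.02 on treated 1 to 4, and 10.62, 10.61, 11.42 and 11.04 on vehicle 1 to 4. Its arrays spanned 0.91 on the log2 scale, the narrowest range of the 8 genes, and its difference was −0.07 (−0.55 to 0.40).

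Pdia4 (1370007_at), a protein disulfide isomerase that forms and rearranges disulfide bonds, had another order of arrays. It measured 10.51, 9.57, 10.19 and 9.80 on treated 1 to 4, and 9.74, 9.83, 10.32 and 10.22 on vehicle 1 to 4. Treated 1, the lowest array for Hspa5, Hsp90b1, Dnajb9 and Calr, was the highest for Pdia4. The group means were 10.02 ± 0.41 and 10.03 ± 0.28 (treated and vehicle, SD, n = 4 each), with a difference of −0.01 (−0.51 to 0.50). Sdf2l1 (1373043_at), an ER resident protein found in chaperone complexes with BiP, ranged most widely. Its levels were 9.20, 9.87, 10.64 and 9.73 on treated 1 to 4, and 9.18, 9.38, 11.06 and 10.56 on vehicle 1 to 4. The highest array stood 3.67-fold above the lowest, both of them vehicle arrays, and the difference between the groups was −0.19 (−1.21 to 0.83).

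Xbp1 (1371249_at), the transcription factor itself, had the highest difference of the 8 genes. Its log2 level was 11.77, 12.26, 12.11 and 11.20 on treated 1 to 4, and 11.12, 11.87, 11.34 and 12.09 on vehicle 1 to 4. The means were 11.84 ± 0.47 in treated and 11.60 ± 0.45 in vehicle livers (SD, n = 4 each), and the difference of 0.23 (−0.40 to 0.87) was smaller than either SD. Vehicle 3, the highest array for Hspa5, Hsp90b1, Dnajb9, Calr and Sdf2l1, was the third lowest for Xbp1.

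Dnajb9 (1387116_at) encodes ERdj4, a co-chaperone of BiP and a known Xbp1 target. It measured 9.85, 11.30, 11.15 and 10.60 on treated 1 to 4, and 10.20, 10.86, 11.58 and 11.03 on vehicle 1 to 4. Treated 1 and vehicle 1 were the lowest, as for Hspa5, and the groups differed by −0.19 (−1.02 to 0.63). Herpud1 (1367741_at) encodes a membrane protein that helps to send misfolded proteins from the ER to the proteasome. It measured 10.93, 11.41, 11.60 and 11.30 on treated 1 to 4, and 10.25, 11.79, 11.67 and 11.49 on vehicle 1 to 4. Vehicle 1 lay 0.68 below the next lowest array, treated 1, and the other 6 arrays were between 11.30 and 11.79. The difference was 0.01 (−0.72 to 0.74), with an SD of 0.28 in treated and 0.71 in vehicle livers.

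**Figure D3:**
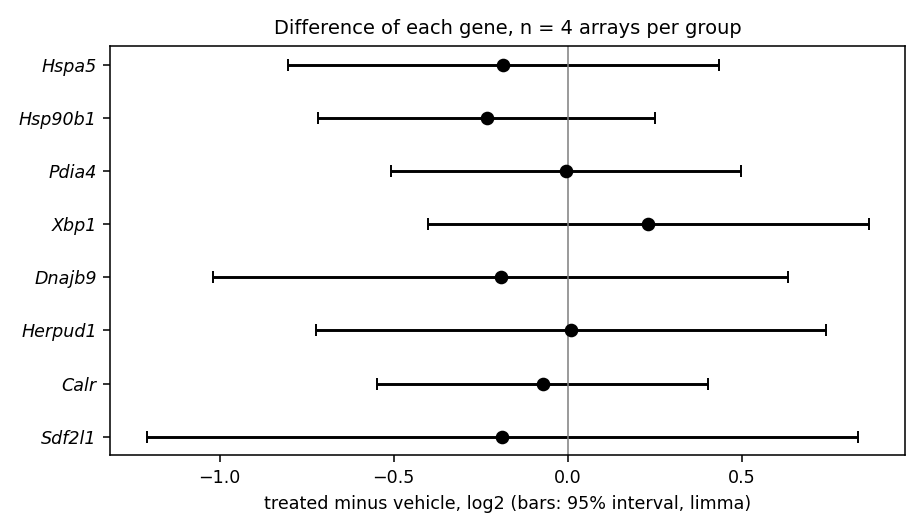
Treated minus vehicle difference of each gene on the log2 scale (points) with 95% intervals from limma (bars), n = 4 arrays per group. All 8 intervals contain 0, and the widest, that of Sdf2l1, runs from −1.21 to 0.83.

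Directions differed between the spike-in groups, which were inferred from the signals. In the first, treated 1 minus vehicle 1 was 0.77 for Pdia4, 0.68 for Herpud1 and 0.65 for Xbp1, and −0.49 for Hsp90b1, −0.36 for Dnajb9 and −0.18 for Hspa5. In the second, treated 2 and 4 minus vehicle 2 and 3 was positive only for Xbp1 (0.13) and ran from −0.42 for Sdf2l1 to −0.12 for Calr in the other 7 genes. In the third, the near-identical treated 3 and vehicle 4 differed by −0.02 to 0.12. With the spike-in group as a block, limma called 0 of the 8 genes.

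The 8 genes varied more between livers of the same group than most probe sets with a mean log2 value of at least 6. Their median within-group SD was 0.455, against 0.274 over the 12848 probe sets with a mean log2 value of at least 6, and 5 of the 8 exceeded the 75th percentile of 0.399. Vehicle 3 was the highest array for 5 of the 8 genes. Treated 1 was the lowest for 4 and vehicle 1 for 3. Mean deviations from the genes' own means were −0.40, 0.05, 0.32 and −0.13 on treated 1 to 4, and −0.52, −0.07, 0.48 and 0.27 on vehicle 1 to 4. Low and high arrays thus stood in both groups as labelled. The high treated array, treated 3, is however the near copy of vehicle 4. The next highest treated array, treated 2, stood at 0.05. The 2 low arrays, treated 1 and vehicle 1, were those of the first spike-in group and had the highest Gapdh 3′ to 5′ ratios, 0.404 and 0.414. All such ratios are given on the log2 scale, as 3′ minus 5′ signal. The next highest ratios, 0.378 and 0.330, belonged to vehicle 4 and treated 3, whose mean deviations were above 0. Vehicle 3, the highest array, had a log2 Gapdh ratio of 0.186 but the highest log2 beta-actin ratio, 1.91, of a range from 1.70 to 1.91. Treated 2 had the lowest Gapdh ratio, 0.133, with a mean deviation near 0. The part of the spike-in group and of RNA integrity in this pattern was not tested.

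**Figure D4:**
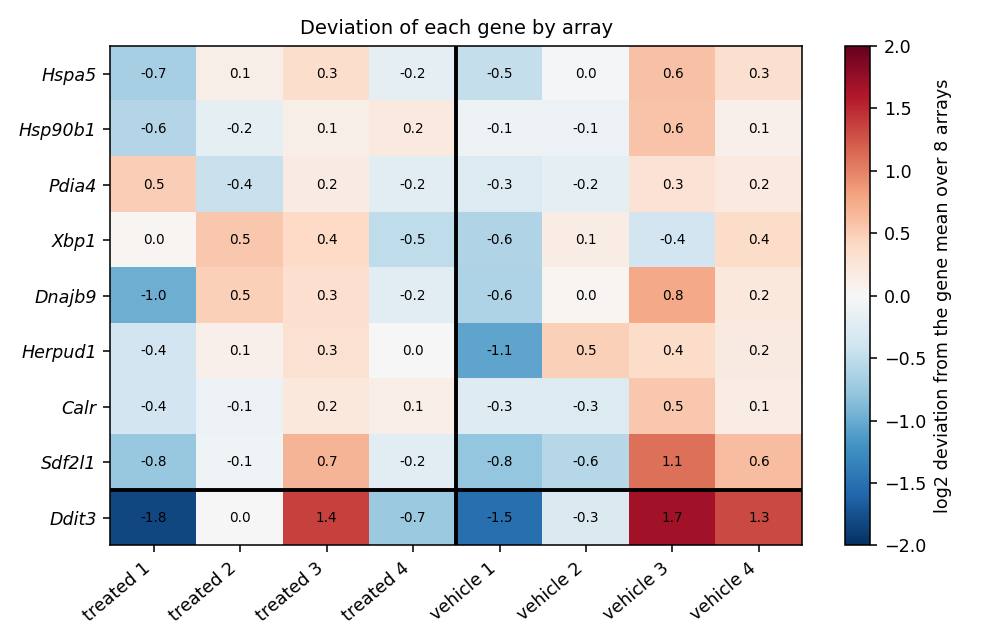
Log2 deviation of each gene from its mean over the 8 arrays, treated arrays at the left, with Ddit3 below the line for comparison. Blue columns (treated 1 and vehicle 1) and red columns (vehicle 3, treated 3 and vehicle 4) occur in both groups as labelled. The red treated column, treated 3, is the near copy of vehicle 4. Xbp1 and Pdia4 depart from the pattern of the others.

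Some of these genes moved together from liver to liver, across both groups. Pearson correlations were computed for all 28 pairs of the 8 genes over 7 values, with treated 3 and vehicle 4 averaged, and p-values were adjusted over the 28. The 2 farthest livers left out below were those farthest from the median of 1 gene of the pair. That gene was the one named first in the opening list of the 8. Of the pairs, 23 were positive, 8 had an unadjusted exact permutation p under 0.05 and 4 passed after adjustment, each with an adjusted p of 0.025. Hspa5 correlated with its co-chaperone gene Dnajb9 at r = 0.966 (rho = 0.964, exact permutation p = 0.00119 for r and 0.00278 for rho, two-sided) and, without the 2 farthest livers, at 0.91. Hspa5 and Sdf2l1 correlated at r = 0.924 (rho = 0.929, exact permutation p = 0.00317 and 0.00675), and at 0.879 without the 2 farthest livers. Calr and Sdf2l1 had r = 0.937 (rho = 0.857, exact permutation p = 0.00258 and 0.0238), and 0.783 without the 2 farthest. For this pair these were vehicle 3 and the average of treated 3 and vehicle 4. Hsp90b1 and Calr had r = 0.922 (rho = 0.857, exact permutation p = 0.00357 and 0.0238), and 0.825 without the 2 farthest. By rho, 0 of the 28 pairs passed after adjustment. The spike-in groups hold too few arrays for values within them. The permutations shuffled all 7 values freely, without regard to these groups. Pairs of other genes were not counted in the same way. The 4 pairs are therefore not shown to be particular to these genes.

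Xbp1 and Pdia4 had lower correlations over all the livers. Xbp1 had r = 0.253 with Hspa5, and 0.881 without treated 1 and vehicle 3, the 2 livers farthest for Hspa5. Without treated 4 and vehicle 1, the 2 farthest for Xbp1, its r fell with every later gene of the list. It went from 0.307 to −0.0523 with Dnajb9, 0.479 to −0.124 with Herpud1, −0.200 to −0.472 with Calr and 0.103 to −0.348 with Sdf2l1. The values of Xbp1 thus depended on which livers were left out. Xbp1 had r = −0.386 with Hsp90b1 (−0.359 without treated 1 and vehicle 3). Pdia4 had r = 0.0337 with Hspa5 (0.496 without them) and −0.165 with Dnajb9 (0.0940 without them). Without these livers r of Pdia4 was higher in every pair. It reached 0.628 with Hsp90b1, 0.587 with Calr and 0.671 with Sdf2l1, so that Pdia4 also depended on the livers left out. None of the 13 pairs that include Xbp1 or Pdia4 was among the 4, and no pair of Herpud1 was either. Of the 4 genes with an ERSE in the printed promoters, Hspa5, Hsp90b1 and Calr had r = 0.783 to 0.922 with one another. Without the 2 farthest livers r was 0.124 for Hspa5 and Hsp90b1, 0.547 for Hspa5 and Calr and 0.825 for Hsp90b1 and Calr. The r of Xbp1 with these 3 genes ran from −0.386 to 0.253. Dnajb9 and Sdf2l1, which correlated most closely with Hspa5, held neither exact ERSE nor exact ERSE-II in the window. Both held the core CCACG. The part of these motifs in the correlations was not tested.

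Genes with the most similar pattern were sought among 8487 other named genes with a mean of at least 6, by Pearson correlation over the 8 arrays with the mean of the 8 centred genes. The 6 highest were Ppp2r5b (r = 0.994), a regulatory subunit of protein phosphatase 2A, Oser1 (0.986), Ddit3 (0.978), Htatip2 (0.972), Rusc1 (0.971) and Ipo5 (0.970), a nuclear import receptor. These correlations over 8 arrays, of which 2 are near copies, are descriptions, and for these 6 they were 0.961 to 0.993 without the near-identical arrays. Of the 50 genes highest on this scale, 7 (14%) stood in the ER folding, degradation, export or sensor lists described below, as did 127 of all 8487 genes compared (1.5%). The ATF4 and CHOP list, which holds Ddit3, is not in this count, and the shares were not tested.

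Ddit3 (1369590_a_at) encodes CHOP, the transcription factor associated with cell death in prolonged ER stress. Its log2 level was 6.90, 8.70, 10.08 and 7.97 on treated 1 to 4, and 7.21, 8.41, 10.39 and 10.02 on vehicle 1 to 4. Its 8 livers spanned 3.49 on the log2 scale, with treated 1 and vehicle 1 the lowest and vehicle 3 the highest, as for Hspa5. The groups differed by −0.60 (−2.45 to 1.25) in limma, with an adjusted p of 0.979.

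Other genes of the ER were followed in lists, each gene by its brightest probe set and without the 8 genes above. Over all 14217 genes limma called 0 (0%), 4.75% had an unadjusted p under 0.05, and 51.6% had the higher mean in treated livers, with a median difference of 0.01. Folding enzymes and chaperones passed at 0 of 36 genes in either direction, with 18 higher and 18 lower and a median difference of 0.00. At an unadjusted p under 0.05 there was 1, Fkbp14 (1372525_at), a prolyl isomerase that acts on collagens. It measured 4.94, 5.17, 5.38 and 5.70 on treated 1 to 4, and 5.77, 5.73, 6.06 and 5.80 on vehicle 1 to 4, with no overlap (difference −0.54, 95% interval −0.93 to −0.16, limma adjusted p = 0.979). In this list 3 genes did not overlap, beside 1.62% of all genes. The other 2, named after their values were seen, were Cnpy3 (difference 0.18) and Cnpy2 (0.15). Next by p were Sil1, the nucleotide exchange factor of BiP, at 8.24 ± 0.08 in treated and 7.98 ± 0.21 in vehicle livers (SD, n = 4 each), and Creld1, with a difference of 0.21 (−0.05 to 0.47).

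Genes of degradation from the ER passed at 0 of 26, with 14 higher, 12 lower and a median of 0.02. The 3 smallest p-values belonged to Sel1l, the adaptor of the ER ubiquitin ligase complex (difference 0.28), the ubiquitin ligase Marchf6 (0.17) and Nploc4, a cofactor of the segregase VCP (0.16), each with an interval that contains 0. Genes of translocation, glycosylation and vesicle export passed at 0 of 53, with 21 higher, 32 lower and a median of −0.03. Kdelr3 (1372870_at), a receptor that returns escaped chaperones to the ER, measured 6.05, 6.40, 7.30 and 7.68 on treated 1 to 4, and 7.54, 7.20, 8.76 and 7.18 on vehicle 1 to 4. Its difference of −0.81 (−1.81 to 0.19) was the lowest of that list, and was −0.45 without vehicle 3, −0.54 without treated 1 and −1.12 without the near-identical arrays. The cargo receptor subunit Mcfd2 differed by 0.25 (−0.06 to 0.55) and Stt3b, a catalytic subunit of the oligosaccharyltransferase, by 0.24 (−0.06 to 0.54).

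Stress sensors and transducers passed at 0 of 18, with 11 higher, 7 lower and a median of 0.02. Wfs1, an ER membrane protein lost in Wolfram syndrome, differed by 0.35 (−0.11 to 0.80). Creb3l3, a hepatocyte membrane-bound transcription factor, and its relative Creb3l1 differed by 0.18 and 0.16. The intervals of both contain 0.

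Targets of ATF4 and CHOP had the lowest median of the 5 lists, −0.57, with 5 of 22 higher and 17 lower, and 0 passed. This median was −0.06 without treated 1, −0.24 without vehicle 3 and −0.78 without the near-identical arrays. Treated 1 had a mean deviation of −1.50 from the genes' own means. The other deviations were 0.44, 0.16 and −0.20 on treated 2 to 4, and −0.34, 0.37, 0.92 and 0.16 on vehicle 1 to 4. Chac1 (1389573_at), which degrades glutathione, measured 5.67, 9.56, 8.97 and 8.33 on treated 1 to 4, and 11.31, 10.89, 10.51 and 8.99 on vehicle 1 to 4. Treated 1 was far below the other arrays and treated 2 lay above vehicle 4 (difference −2.29, 95% interval −4.15 to −0.44, unadjusted p = 0.0208, limma adjusted p = 0.979). Vldlr, a lipoprotein receptor induced by ATF4, differed by −0.90 (−1.78 to −0.03), and the mitochondrial folate enzyme Mthfd2 by −0.57 (−1.29 to 0.16). Without treated 1 the differences were −1.47 for Chac1, −0.55 for Vldlr and −0.31 for Mthfd2. Without the near-identical arrays they were −3.05, −1.16 and −0.80 for the same genes.

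**Figure D5:**
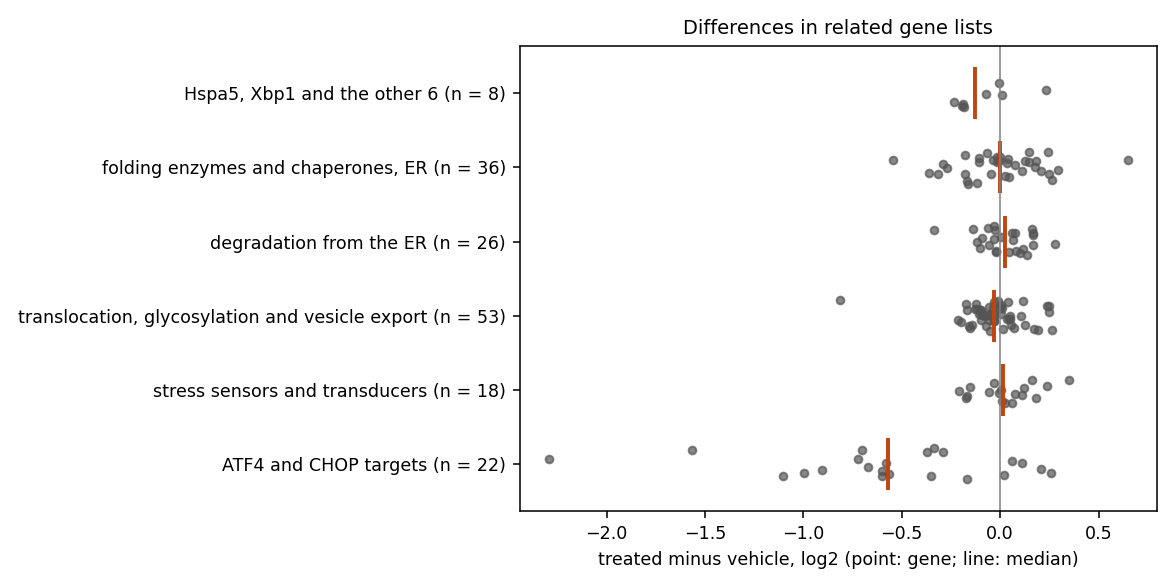
Treated minus vehicle difference on the log2 scale of each gene (points) and the median (line) for the 8 genes and 5 related lists. The medians of the 4 ER lists lie between −0.03 and 0.02, that of the 8 genes at −0.13 and that of the ATF4 and CHOP targets at −0.57.

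Cell type markers are set beside these values as a rough view of the make-up of the samples. They are given as the log2 of summed intensities over each list, in which the brightest genes weigh most. Hepatocyte markers had the lower mean in treated livers at 10 of 18 genes measured. They ran from 17.81 to 17.93 on treated and from 17.84 to 17.92 on vehicle arrays. Alb stood at 14.82 ± 0.03 and 14.84 ± 0.02 (treated and vehicle, SD, n = 4 each). Plasma and B cell markers were included since antibody-secreting cells rely on Xbp1. They had the lower mean in treated livers at 7 of 10 genes. Their summed level ran from 10.01 to 10.46 on treated and from 10.19 to 10.51 on vehicle arrays. The plasma cell gene Mzb1 stood at 4.08 ± 0.14 in treated and 4.11 ± 0.24 in vehicle livers, and the B cell genes Pou2af1 and Ms4a1 were at or below the 25th percentile of the array on all 8. Fibroblast and matrix markers had the lower mean in treated livers at 15 of 15 genes, and ran from 12.78 to 14.27 on treated and from 13.02 to 14.88 on vehicle arrays. Of these, the collagen gene Col1a1 stood at 8.30 ± 0.90 in treated and 9.58 ± 1.08 in vehicle livers (SD, n = 4 each, limma adjusted p = 0.979). Endothelial markers had the lower mean at 13 of 13, with 10.79 to 11.04 on treated and 10.83 to 12.02 on vehicle arrays. Macrophage markers had it at 10 of 13, with 13.20 to 14.40 on treated and 13.52 to 14.34 on vehicle arrays. Among them the leukocyte gene Ptprc stood at 7.31 ± 0.73 in treated and 8.31 ± 0.79 in vehicle livers (SD, n = 4 each, limma adjusted p = 0.979). Bile duct markers had it at 7 of 8, with 9.51 to 11.75 on treated and 10.16 to 10.91 on vehicle arrays. The genes of a list were measured on the same 8 arrays, so that these counts are not separate observations, and they were not tested. Vehicle 1 had the highest summed fibroblast level, 14.88, and the lowest mean of the 8 genes, while vehicle 3, with 14.73, had the highest mean. The part of these cell types in the values of Fkbp14, Kdelr3, Chac1 and the 8 genes was not tested.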

How the data were processed

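Arrays of 8 livers, 4 per group as labelled, were assigned by sample title. The deposited values are RMA log2 intensities made by the authors with affy and RMA, per the submitters' processing notes. Tool versions are not stated in these notes. RMA normalizes arrays by quantiles and draws small differences of dim probe sets towards 0. Of 31099 probe sets, 57 controls were left out. Depth does not apply to arrays, and the number of arrays limits the precision. The platform annotation gave 20826 probe sets 1 symbol, 436 several and 9780 none listed.

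Differences are treated minus vehicle, from limma 3.58.1 (R 4.3.3; lmFit, eBayes, no covariates), with Benjamini-Hochberg adjustment over 31042 probe sets and a threshold of 0.05. The fit was checked on simulated arrays with independent noise. These held no near-identical pair and no spike-in groups, so that the check says nothing about those features. Exact permutation tests used scipy 1.17.1. The genes named were the 8 genes, the 3 of each list with the smallest p, the 6 with the most similar pattern, and of the markers Alb, Col1a1, Mzb1 and Ptprc. Cnpy2, Cnpy3, Pou2af1 and Ms4a1 were named after their values were seen. The genes, lists and alternatives were chosen with earlier results of these data known. The replicate numbers do not pair the livers by the labels. Alternatives were other normalizations, filters on dim probe sets, variance models, blocks, a covariate for the Gapdh ratio, averaging a gene's probe sets and leaving out arrays.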

Additional observations from a re-analysis of the deposited data

How the results depend on the processing

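Over 18 alternatives limma called 0 of the 8 genes, and 0 of the 15 list genes named by their p, none of which changed direction, although leaving out 1 array moved 12 of the 15 differences by over 1.5 times. Filters, variance models and blocks kept the differences of the main fit, so that a direction could change only under the other alternatives. The 15 were also picked for a small p in these same data, which favours a stable direction. Fkbp14 and Wfs1 were not measured under the filter at a mean of 6. The direction of small differences was less stable. Leaving out 1 array gave 1 to 6 of the 8 genes higher in treated livers (6 without treated 1 and 6 without vehicle 3) and a median difference from −0.32 to 0.09. Differences then ran from −0.38 to 0.00486 for Hspa5, −0.17 to 0.14 for Pdia4, −0.43 to 0.10 for Dnajb9, −0.34 to 0.17 for Herpud1, −0.18 to 0.0948 for Calr and −0.48 to 0.15 for Sdf2l1, while under all 18 Hsp90b1 ran from −0.34 to −0.0747 and Xbp1 from 0.0699 to 0.44. Quantile normalization left 1 of the 8 higher and turned Herpud1 to −0.0441. Median centring turned Pdia4 to 0.0479. The Gapdh ratio as a covariate gave 0.0105 for Pdia4 and −0.0275 for Herpud1. Without both near-identical arrays these were 0.000339 and −0.0234, and 3 probe sets of the whole array passed, none of them among the 8 genes. Leaving out 1 array gave 0 to 11 probe sets passing over the array (11 without vehicle 4). The treated minus vehicle difference of the log2 Gapdh ratio ran from −0.0513 to 0.0389 and that of the log2 beta-actin ratio from −0.0572 to 0.0134. The causes were not tested. Same-numbered livers deviated from their group means with correlations of −0.62 to 0.04. These values cannot tell whether livers were paired, since the near-identical arrays shape the deviations, and the labels name no pairs. With the replicate block the count was 0 of the 8 genes and 0 on the array. The median difference stayed at −0.13, which such a balanced block cannot change. The number of arrays limits every interval.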
